A study of Homo sapiens with 47 samples.

Results

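The zinc finger gene clusters of human chromosome 19 were examined in chromatin maps of melanoma cells that had become resistant to vemurafenib, an inhibitor of the kinase BRAF. The members were all H3K9me3 islands, ATAC-seq peaks, H3K27ac peaks and intervals of a deposited table (RRR) that overlapped 4 windows of the hg19 genome by at least 1 bp. Window 1 ran from 19.7 to 24.4 Mb, window 2 from 36.6 to 38.4 Mb, window 3 from 52.3 to 54.1 Mb and window 4 from 56.1 to 58.9 Mb without the stretch from 57.32 to 57.36 Mb. Together they span 11.06 Mb. They held 8029 of the 2305813 features of all lists: 3919 of 478961 H3K9me3 islands, 3662 of 1654632 ATAC-seq peaks, 441 of 170372 H3K27ac peaks and 7 of 1848 RRR intervals. No measured value entered the choice of members, and 14 members that also reach into the excluded stretch were kept.

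The study used the melanoma cell lines 451Lu and WM983B, each as drug-sensitive parental cells and as a derived resistant population. It also engineered 451Lu: AP1 cells over-express c-JUN and c-FOS, shp150 cells carry a short hairpin RNA against p150, and shp150_AP1 cells carry both changes. Their respective controls were named vector, NT and vector_NT. ATAC-seq, in which the transposase Tn5 cuts accessible DNA, was listed for all of these groups (20 libraries, 2 per group). ChIP-seq for H3K9me3, a histone mark of silent chromatin, was listed for parental, resistant, shp150_AP1 and vector_NT 451Lu cells (8 libraries, 2 per group). ChIP-seq for H3K27ac, a mark of active promoters and enhancers, was listed for parental and resistant cells of both lines, with 1 library used per group. Nothing in the labels states that the replicates are independent cultures, and the p-values measure only the spread between these samples, which may be technical.

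KRAB zinc finger proteins form a large family of DNA-binding repressors, many of which bind transposable elements. Through their KRAB domain they recruit the corepressor TRIM28 and the methyltransferase SETDB1, which places H3K9me3. The genes lie in tandem clusters, most of all on chromosome 19, and these clusters are known for broad H3K9me3 over the gene bodies while their promoters can stay open. By symbol, 265 of 573 protein-coding zinc finger genes (46.2%) in a RefSeq gene table of a later assembly were on chromosome 19. Genes were not placed on the hg19 regions here, so results are given by position, and all positions below are on chromosome 19 of hg19.

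H3K9me3 islands covered most of the windows in every library. Cover was 79.3% and 80.2% of window bases in the parental libraries (replicates 1 and 2) and 75.3% and 73.7% in the resistant ones. It was 86.3% and 86.1% in vector_NT and 76.1% and 81.1% in shp150_AP1. Both resistant libraries lay below both parental ones, and both shp150_AP1 libraries below both vector_NT ones. The rest of chromosome 19 had far less cover, 11.4% ± 0.165 in parental and 8.66% ± 0.297 in resistant cells (SD, n = 2). With 2 libraries against 2 there are only 3 splits, so an exact permutation test of a single value cannot reach 0.05 and none is given for these levels.

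**Figure D1:**
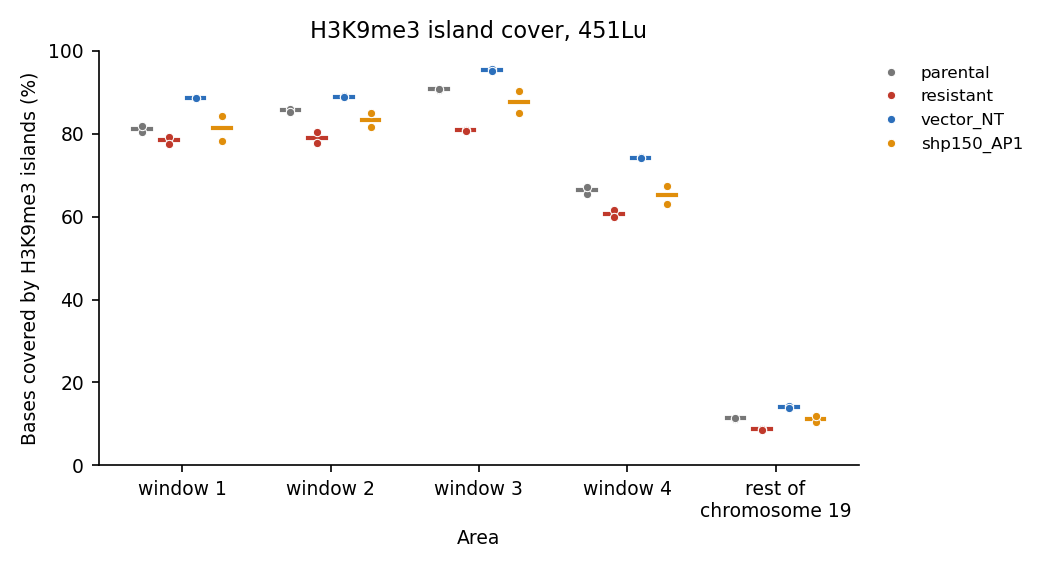
Share of bases covered by H3K9me3 islands (y axis, %) in the 4 windows and the rest of chromosome 19 (x axis). Each point is a library, each bar the mean of the 2 libraries of a group, and the resistant points lie below the parental points in every window.

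Window 3 was the most covered and window 4 the least. In window 3 cover was 90.6% and 90.9% in parental and 80.9% and 80.7% in resistant cells, the largest difference of the 4 windows at -9.94 percentage points. In window 2 it was 86% and 85.3% against 80.4% and 77.7%. In window 1 it was 80.5% and 81.8% against 79.1% and 77.6%, the smallest difference at -2.73 points. In window 4 it was 65.5% and 67.2% against 61.6% and 59.9%. The engineered cells gave another order. Between shp150_AP1 and vector_NT the differences were -7.39 points in window 1, -5.67 in window 2, -7.67 in window 3 and -9.04 in window 4. The 2 shp150_AP1 libraries were farther apart than any other pair (78.2% and 84.3% in window 1).

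Wide islands in the windows were fewer in resistant cells. Parental libraries had 17 and 17 islands wider than 100 kb in the windows, and resistant libraries 8 and 6. The widest island measured 262.8 and 353.2 kb in parental but 140.6 and 129.8 kb in resistant cells. In vector_NT there were 21 and 21 such islands, and in shp150_AP1 8 and 16. Wide islands outside the windows are not given here, and whether these differences are particular to the windows was not tested. Islands of any width in the windows numbered 468 and 505 in parental and 493 and 673 in resistant libraries, which overlap. They numbered 328 and 336 in vector_NT against 702 and 414 in shp150_AP1 libraries. Over the genome islands numbered 61888 and 70879 in parental and 40010 and 50181 in resistant libraries. In vector_NT these were 76857 and 67147, and in shp150_AP1 63295 and 48704. ChIP reads inside all islands of a library were (in M reads) 15.7 and 18.3 in parental, 14.8 and 13.2 in resistant, 31.1 and 21.8 in vector_NT and 11.5 and 14.9 in shp150_AP1 libraries. These totals depend on the islands themselves and are not the sequencing depth, which is unknown here. The part of depth in cover and island width was not tested.

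H3K9me3 over input inside islands was lower in the treated cells. Enrichment, the ChIP reads of a library's own islands over their input reads at the authors' scale, was 3.69-fold and 3.76-fold in the windows of parental cells. It was 2.79-fold and 2.95-fold in resistant, 3.85-fold and 4.02-fold in vector_NT and 3.27-fold and 3.27-fold in shp150_AP1 cells. The groups of each comparison did not overlap. The resistant over parental ratio was 0.826 in window 1, 0.727 in window 2, 0.702 in window 3 and 0.736 in window 4. It was 0.769 over all windows, 0.766 over the rest of chromosome 19 and 0.799 over all other islands of the genome. The shp150_AP1 over vector_NT ratio was 0.831 in the windows, 0.883 in the rest of chromosome 19 and 0.900 in all other islands. Islands were called separately in each library, so these ratios compare different sets of bases, and cover is given above for each.

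**Figure D2:**
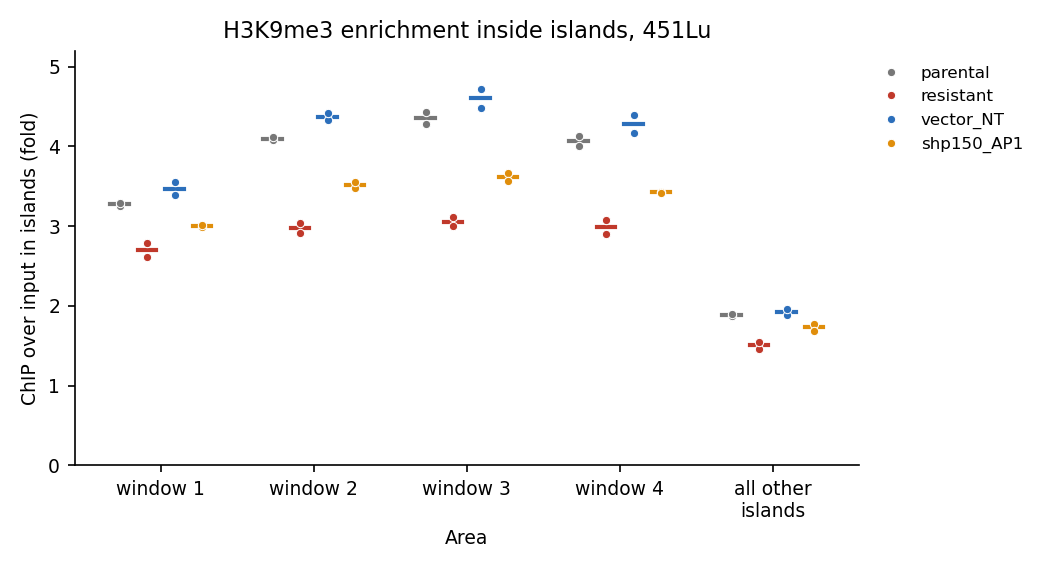
H3K9me3 ChIP over input inside islands (y axis, fold) for the 4 windows and for all islands outside them (x axis). Points are libraries and bars the mean of 2 libraries, and the windows sit between 2.61-fold and 4.72-fold in these libraries, above the other islands at 1.46-fold to 1.95-fold.

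Relative to the other islands of the same library, enrichment in the windows was about 2-fold higher. The ratio was 1.98 and 1.98 in parental, 1.91 and 1.90 in resistant, 2.04 and 2.06 in vector_NT and 1.84 and 1.94 in shp150_AP1 libraries. Both treated groups lay below their controls. The windows took 3.35% ± 0.0120 of island ChIP reads in parental and 3.29% ± 0.117 in resistant cells (SD, n = 2), which differed by less than the spread between the resistant replicates. They took 3.50% ± 0.124 in vector_NT and 3.58% ± 0.0605 in shp150_AP1 cells (SD, n = 2), again within the spread.

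Changes were then tested along a fixed grid of 20 kb bins over the genome with limma, in 1 fit of all 8 H3K9me3 libraries with Benjamini-Hochberg adjustment over all bins. Of the 553 bins in the windows, 523 had a mean cover of at least 5% and entered. In resistant cells 25 of these fell and 3 rose at an adjusted p below 0.05, where 4.38% and 2.64% of all 55033 tested bins did so. The share of bins that fell was thus near that of the genome. In 181 of the 523 (34.6%) both resistant libraries lay below both parental ones, against 37.9% of all tested bins. The median change was -0.03 as a fraction of the bin in the windows and -0.06 over all bins. Of the 523 window bins, 177 had full cover in both parental libraries and could not rise, and 92 had no change. The shares and medians of all bins were not matched for starting cover. By window, 6, 4, 7 and 8 bins fell in windows 1 to 4, and the bins that rose were 2 in window 1 and 1 in window 4. The calls rested on the full set of libraries: none fell without parental replicate 1 or 2, resistant replicate 1 or vector_NT replicate 1 or 2, and 5 fell without resistant replicate 2. With cover centred on the median of each library, 21 fell and 8 rose, and the median change in the windows became 0.025. Centring takes off the library median, so a full bin without any change in cover comes out above 0 here.

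**Figure D3:**
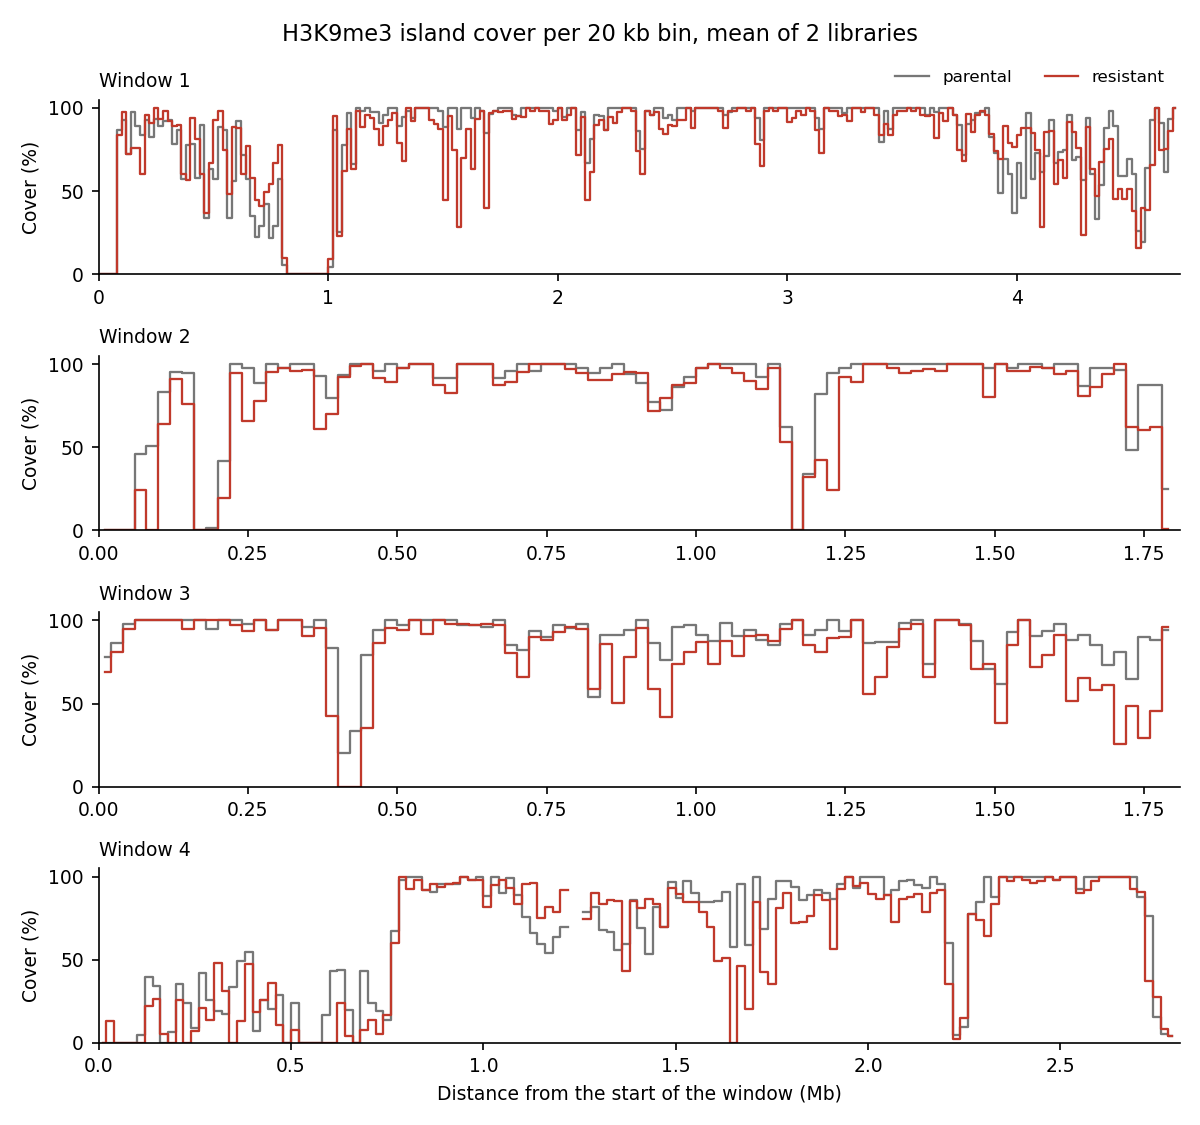
H3K9me3 island cover per 20 kb bin (y axis, %) along each window (x axis, distance from its start in Mb), as the mean of 2 parental (grey) and 2 resistant (red) 451Lu libraries. Long stretches of full cover are shared, dips deeper in resistant cells occur in every window, and the gap in window 4 is the excluded stretch.

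The largest drop in resistant cells was in window 2, at 37820001 to 37840000. Cover there was 96% and 94% in parental and 13% and 36% in resistant libraries, a change of -70.5 points (SE 9.49, limma adjusted p = 0.0209). In vector_NT it was 100% and 96% and in shp150_AP1 83% and 65%, a change that did not pass (limma adjusted p = 0.183). The widest region that all 4 libraries of this comparison shared in window 2, from 37815601 to 38241800, starts just before this bin, and islands covered 91.8% and 91.4% of the whole region, this bin included, in resistant libraries. The next bin, 93% and 92% covered, had a log2 enrichment change of -0.74 (limma adjusted p = 0.0458). Also in window 2, the bin 36680001 to 36700000 went from 51% and 51% to no island in either resistant library (limma adjusted p = 0.0260). The bin 36960001 to 36980000 went from 94% and 92% to 54% and 68% (limma adjusted p = 0.0314).

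In window 3 the bin 54040001 to 54060000 fell in both comparisons. Cover was 86% and 94% in parental against 16% and 42% in resistant libraries (-61.0 points, SE 9.86, limma adjusted p = 0.0260). It was 100% and 100% in vector_NT against 32% and 40% in shp150_AP1 libraries (-64.0 points, SE 9.86, limma adjusted p = 0.0397). No treated library reached the level of any control library. The cells with a single change each lacked an ATAC-seq peak inside this bin that their controls had: 54040894 to 54041378 was lost in AP1 (vector scores 5.71 and 4.66) and 54040925 to 54041355 in shp150 cells (NT scores 7.61 and 3.36). H3K9me3 was not listed for those groups. In each of the comparisons where H3K9me3 fell, the 2 ATAC-seq regions in or near this bin were open in every library.

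The other named bins of window 3 were 52740001 to 52760000, with 78% and 80% in parental and 34% and 36% in resistant libraries, and 52680001 to 52700000, with 87% and 80% against 49% and 36% (limma adjusted p = 0.0297 and 0.0285). In shp150_AP1 cells the bin 52700001 to 52720000 had 0% and 17% against 69% and 59% in vector_NT (-55.5 points, SE 7.49, limma adjusted p = 0.0376). Parental cells had only 20% and 20% there and resistant cells none, so the control levels of this bin differed.

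In window 1 the bins that fell furthest in resistant cells lay within 200 kb of each other. The bin 21260001 to 21280000 went from 85% and 90% to 37% and 20%, 21380001 to 21400000 from 86% and 84% to 43% and 36%, and 21200001 to 21220000 from 88% and 89% to 55% and 34%. Their limma adjusted p-values were 0.0262, 0.0342 and 0.0281. Window 1 also held bins that rose. At 23720001 to 23740000 cover was 37% and 55% in parental and 88% and 88% in resistant cells (42.0 points, SE 7.84, limma adjusted p = 0.0320). At 20460001 to 20480000 it was 27% and 31% against 56% and 78% (limma adjusted p = 0.0480). Inside the islands of these 2 bins the log2 enrichment changed by -0.48 and -0.40, neither past the test (limma adjusted p = 0.119 and 0.157).

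In window 4 the bin 57740001 to 57760000 went from 49% and 66% in parental to no island in resistant cells (-57.5 points, SE 9.51, limma adjusted p = 0.0268). In shp150_AP1 it had 16% and 16% against 75% and 54% in vector_NT (limma adjusted p = 0.0507). The bins 57840001 to 57860000 and 56700001 to 56720000 changed by -51.0 and -43.5 points in resistant cells (limma adjusted p = 0.0363 and 0.0403). One bin, 57520001 to 57540000, rose from 46% and 61% to 90% and 83% (limma adjusted p = 0.0434).

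Between shp150_AP1 and vector_NT cells 7 bins of the windows fell and none rose, where 2.39% and 0.285% of all tested bins did. At an unadjusted p below 0.05 there were 59 bins in either direction. In 194 of the 523 (37.1%) both shp150_AP1 libraries lay below both vector_NT ones, against 40.7% of all tested bins. Of the 523 bins, 257 were full in both vector_NT libraries and could not rise. Without any 1 of the 8 libraries none passed, and 2 passed after centring. Besides those above they were 24240001 to 24260000, 24280001 to 24300000 and 19980001 to 20000000 in window 1 and 58300001 to 58320000 and 57780001 to 57800000 in window 4. The bin at 24240001 had 11% and 14% in shp150_AP1 against 95% and 69% in vector_NT, but 17% and 22% already in parental cells. The bin at 57780001 had 22% and 23% against 69% and 75%, and resistant cells had 25% and 16% against 63% and 55% in parental cells there.

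The contrasts share no library, but both come from 1 fit with the same estimate of spread for a bin. Calls in both contrasts are therefore not independent. Of the 25 bins that fell in resistant cells, 24 had a mean change below 0 in shp150_AP1 cells as well, where 71.1% of all window bins did. Of the 7 that fell in shp150_AP1 cells, 5 were below 0 in resistant cells, and the bins at 24240001 and 19980001 were above 0 there. The bins that passed in both contrasts numbered 3: 54040001 to 54060000, 24280001 to 24300000 and 57780001 to 57800000. The share of all tested bins that passed in both was not counted. Across bins the changes had a Pearson r of 0.36 for cover (523 bins) and 0.57 for log2 enrichment (494 bins). This is a description across neighbouring bins of the same libraries, which are not independent. The test of the difference between the contrasts called no bin in the windows, and none of all 55033, with 39 window bins at an unadjusted p below 0.05.

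The same grid was tested for enrichment in the 494 window bins that had at least 10 input reads from islands in every library. In resistant cells 48 fell and none rose, where 3.39% and 0.191% of all 24664 such bins did. The log2 changes of the 48 ran from -1.05 to -0.61, and 8, 11, 9 and 20 of them lay in windows 1 to 4. The lowest adjusted p was 0.0404, close to the threshold, and leaving out any 1 of the 8 libraries left none, as did centring. Between shp150_AP1 and vector_NT no bin passed (limma, lowest adjusted p = 0.234), in the windows or elsewhere (0% of tested bins), although 160 window bins had an unadjusted p below 0.05.

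The direction was nevertheless shared by most window bins. In 437 of 494 bins (88.5%) both resistant libraries were below both parental ones, against 55.9% of all tested bins, and in 395 (79.96%) both shp150_AP1 libraries were below both vector_NT ones, against 33.2%. The median log2 change in the windows was -0.38 in resistant and -0.28 in shp150_AP1 cells, and over all bins -0.26 and -0.09. Centring each library on its own median removes a log2 shift that is equal in all bins, after which the window medians were -0.11 and -0.18. In those centred values 249 bins (50.4%) were lower in both resistant libraries, against 22.7% of all tested bins, and 321 (64.98%) in both shp150_AP1 libraries, against 22.4%. By window the centred median was -0.004 in window 1, -0.14 in window 2, -0.25 in window 3 and -0.16 in window 4 for resistant cells. For shp150_AP1 cells these were -0.12, -0.20, -0.26 and -0.28. Centring does not remove a shift that grows with enrichment, and the windows were more enriched than the other islands. Whether bins of like enrichment elsewhere fell as much was not tested.

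Bins that began with full cover also had lower enrichment. Of 177 bins with full cover in both parental libraries, 74 were still full in both resistant libraries, and the median of the 177 in resistant cells was 98% (lowest 64.5%). Their median log2 enrichment change was -0.37, and 176 had a change below 0. Of 257 bins that were full in vector_NT, 123 stayed full in shp150_AP1, and the 257 had a median log2 enrichment change of -0.29, with 254 below 0. Their median cover in shp150_AP1 was 98% (lowest 36%). On the same bases, in the 74 window bins that were full in all 4 parental and resistant libraries, the median log2 change was -0.37, with all 74 below 0. In the 694 such bins of the rest of the genome it was -0.13, with 71.9% below 0. In the 123 window bins full in all shp150_AP1 and vector_NT libraries it was -0.29, with 122 below 0, and in 695 such bins elsewhere -0.09, with 68.1% below 0. A wide island spreads its reads over its bins by length, so neighbouring bins are not independent, and these values carry no test.

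Few whole H3K9me3 regions were lost in the windows, and none was gained. Islands of the 4 libraries of a comparison were merged into regions, and a region counted as lost when both control and no treated libraries had an island there. In resistant cells 15 of 232 window regions (6.47%) were lost and none gained, where 17.8% and 3.03% of 76148 regions were. In shp150_AP1 cells 13 of 194 (6.70%) were lost and none gained, where 13.9% and 1.86% of 81084 were. All 4 libraries shared 67.2% and 73.2% of window regions, against 26.6% and 34.2% of all regions. No test was made of these counts. Losses numbered 29 without resistant replicate 2, 43 without parental replicate 1 and 37 without parental replicate 2. In the engineered cells they numbered 24 without shp150_AP1 replicate 1, 30 without vector_NT replicate 1 and 35 without vector_NT replicate 2. Gains in resistant cells rose to 9 without resistant replicate 1, 3 without resistant replicate 2, 1 without parental replicate 1 and 6 without parental replicate 2, and in shp150_AP1 cells to 1, 3 and 2 without shp150_AP1 replicate 1 and 2 and vector_NT replicate 1. Fewer libraries have to share a call when 1 is left out.

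The lost regions were small beside the shared ones. The lost region with the most parental ChIP reads in window 2, 36689401 to 36705400, had 529 ChIP over 293 input reads and 526 over 366. In window 3 it was 52694401 to 52704000 (377 over 183 and 530 over 238), in window 4 57778801 to 57786200 (299 over 152 and 313 over 162) and in window 1 22068801 to 22072400 (179 over 51 and 204 over 60). By contrast the widest shared region of window 1, 22073001 to 22580200, held 32210 and 36963 ChIP reads in parental and 27936 and 26470 in resistant libraries. It measures 507200 bp, and the lost region next to it 3600 bp. In shp150_AP1 cells, the lost regions with the most vector_NT reads were 24230801 to 24240200, 36800001 to 36801800 and 56603601 to 56608400, in windows 1, 2 and 4. Window 3 lost none.

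Of the 201 window regions open in any 451Lu library, 93 were open in all 16. The 20 ATAC-seq lists merged into 342 regions there, 16.2 per Mb in window 1, 32.2 in window 2, 45.6 in window 3 and 45.7 in window 4. Of these 91 were open in all 20 libraries, 69 in a single library, and 37 in all 4 WM983B libraries and in no 451Lu library. No region was open in all 451Lu libraries and in no WM983B library. The counts for the lines are not alike, since 16 libraries had to share a call in 451Lu and 4 in WM983B. WM983B lists were also longer and reached lower scores, and these counts were not set against the whole genome. Lists differed in length between experiments and lines: the windows held 113 to 134 peaks in the libraries of the single changes and their controls, 156 to 176 in the other 451Lu libraries and 327 to 345 in WM983B. These numbers go with list length over the genome (42898 to 147988 peaks). The lowest peak score was 2.001 to 2.036 in 451Lu lists and 1.303 to 1.317 in WM983B lists, so the lines are not compared further by peak number.

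Many open regions of the windows overlapped H3K9me3 islands (by at least 1 bp), but a smaller share than that of window bases in islands. Of the 142 window regions open in both parental and both resistant 451Lu libraries, 67 (47.2%) overlapped an island in both parental libraries and 47 (33.1%) in both resistant ones. Islands covered a mean of 79.7% of window bases in parental and 74.5% in resistant libraries. Across the rest of the genome the shares of such open regions were 4.38% and 4.58%. In the windows 7 regions overlapped islands of both parental and no resistant library, and 3 the reverse. In the rest of the genome these numbers were 612 and 774 of 61963 constant regions. In the engineered comparison 72 of 136 constant regions (52.9%) overlapped islands in both vector_NT libraries and 53 (38.97%) in both shp150_AP1 libraries, with 6 that left islands and none that entered them. In the rest of the genome these shares were 4.72% and 3.59% of 61104 constant regions, with 627 that left islands and 254 that entered them.

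Around these 142 open regions island cover was lower near the centre than farther away. Within 5 kb of the centre cover was 63% and 63% in parental, 51.7% and 51.6% in resistant, 68% and 67.4% in vector_NT and 55% and 58.9% in shp150_AP1 libraries. At 15 to 20 kb it was 68.5% and 69.1%, 61% and 62%, 73.4% and 71.8%, and 62.6% and 67.1%. Neither pair of groups overlapped at either distance. Bins that held such a region had a median cover change of -7.5 points in resistant cells (108 bins, 10 called lower), and bins without one -2.0 points (415 bins, 15 called lower and 3 higher). Their median parental cover was 93% and 95.5%.

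**Figure D4:**
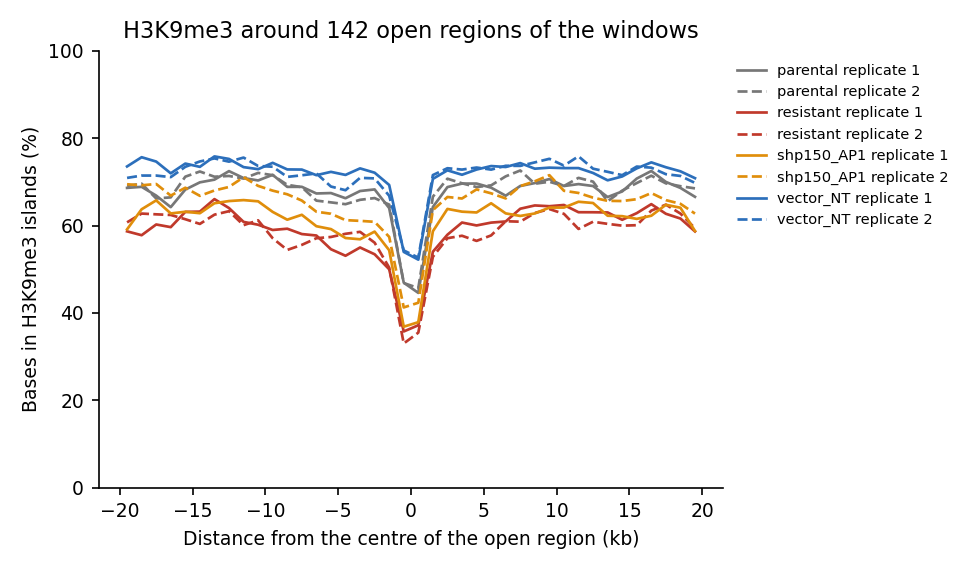
Bases in H3K9me3 islands (y axis, %) in 1 kb steps up to 20 kb on either side of the centre of 142 regions open in all parental and resistant ATAC-seq libraries (x axis). Each line is a library, and the resistant lines lie below the parental lines within 5 kb and at 15 to 20 kb.

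Few ATAC-seq regions changed in the windows. Between resistant and parental 451Lu cells 11 of 190 window regions were gained (5.79%) and 2 lost (1.05%), where 9.79% and 3.96% of 114297 regions were. In shp150_AP1 cells 13 of 186 were gained (6.99%) and 1 lost (0.538%), where 5.19% and 3.26% of 108313 were. Gains numbered 21 without resistant replicate 1, 17 without resistant replicate 2 and 24 without shp150_AP1 replicate 2. Losses in resistant cells numbered 4 without resistant replicate 2, 5 without parental replicate 1 and 4 without parental replicate 2, and in shp150_AP1 cells 4, 3, 3 and 6 without shp150_AP1 replicate 1 and 2 and vector_NT replicate 1 and 2. The best-scoring gain was in window 1, 21684577 to 21685159, scored 31.6 and 21.5 in resistant cells, with no parental peak. It was gained in shp150_AP1 cells as well (21684831 to 21685152, scores 9.53 and 7.41). It overlapped an island in all 8 H3K9me3 libraries.

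Gains present in both comparisons numbered 4, a number that was not set against the gains of the whole genome. With small counts they are all given, chosen after their values were seen. Besides the site at 21684577 they were 24237164 to 24237628 (resistant scores 11.2 and 7.54, shp150_AP1 scores 6.82 and 8.67), 52310433 to 52310805 (12.4 and 13.0, and 7.87 and 8.70) and 58402127 to 58402600 (8.97 and 9.69, and 6.82 and 5.61). Parental and vector_NT libraries had no peak at any of them. The best-scoring gain of window 4 in resistant cells, 57789744 to 57790065 (13.7 and 11.9), and that of window 2, 37960041 to 37960579 (4.33 and 6.51), were not gained in shp150_AP1. The best-scoring gain of window 4 in shp150_AP1 cells was 57411925 to 57412306 (12.4 and 12.1). Losses were 36973839 to 36974203 and 57977341 to 57977554 in resistant cells and 36694297 to 36694522 in shp150_AP1 cells.

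AP1 and the hairpin were also mapped alone. AP1 cells gained 1, 58175645 to 58175988 (scores 7.67 and 9.48), and lost 1, at 54040894, of 140 regions, where 1.6% and 2.86% of 69785 regions were gained and lost. Without each library in turn, AP1 gains numbered 3 to 4 and losses 2 (AP1 replicate 1), 8 (AP1 replicate 2), 6 and 6 (vector replicate 1 and 2). The hairpin alone gained none and lost 7 of 140 (5%), where 0.748% and 7.51% of 69024 were gained and lost. The best-scoring losses were 36606703 to 36606973 in window 2, 52407655 to 52408247 in window 3 and 56632659 to 56633188 in window 4, the last with NT scores of 10.7 and 8.32. Losses of the hairpin numbered 14 to 18 without each library in turn: 18 and 16 without shp150 replicate 1 and 2, and 14 and 15 without NT replicate 1 and 2, and its gains 2, 4, 1 and 0 in that order. With at least 50% of a region covered for a call, its losses numbered 22. The 1 AP1 gain was not among the gains of the combined cells, and the hairpin alone had none to compare. With so few gains, this cannot show whether the combined gains need both changes.

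In WM983B the ATAC-seq libraries were more alike by replicate number than by label. Over the genome the base overlap (Jaccard index) of parental and resistant libraries with the same number was 0.578 and 0.609, and between replicates of one label 0.510 and 0.509. In the windows these were 0.615 and 0.686 against 0.624 and 0.612, so there the pattern held for replicate 2 alone. By label 5 of 389 window regions were gained and 1 lost, where 1.47% and 1.22% of 201142 were, but 43 were gained without resistant replicate 1, 34 without resistant replicate 2, 11 without parental replicate 1 and 17 without parental replicate 2. Losses were 7, 14, 29 and 21. The best-scoring by label were 52598519 to 52598745 (4.76 and 4.89) in window 3, 56673724 to 56673870 (4.76 and 6.67) in window 4 and the lost region 52642127 to 52642218. The others gained, at 53497192, 56151519 and 56631067, were named after their values were seen. None of the 451Lu gains above was among them.

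H3K27ac was listed in more places of the windows in resistant than in parental cells of both lines (153 against 75 peaks in 451Lu, 116 against 97 in WM983B), with 1 library per group and so no replicate check. Of 178 window regions of 451Lu, 104 were resistant-only, 25 parental-only and 49 shared, where 50.3% and 19.9% of 64275 regions were in one list only. In WM983B 44 of 141 were resistant-only and 25 parental-only, where 21.2% and 43.8% of 63550 regions were. The ratio of resistant-only to parental-only regions was 4.16 in the 451Lu windows against 2.53 in the rest of the genome, and 1.76 in the WM983B windows against 0.484. The WM983B resistant list was the shorter one (36022 against 50336 peaks), whereas the 451Lu resistant list was the longer one (51710 against 32304). The lowest listed score also differed, 1.44 in resistant and 1.89 in parental 451Lu and 1.81 and 1.39 in WM983B. When the longer list was cut to the length of the shorter, the window counts were 46 resistant-only and 30 parental-only in 451Lu and 60 and 15 in WM983B. In 451Lu these are 38.3% and 25.0% of window regions, where 33.4% and 32.9% of all regions were in one list only. In WM983B they are 45.8% and 11.5%, where 30.7% and 30.9% were.

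**Figure D5:**
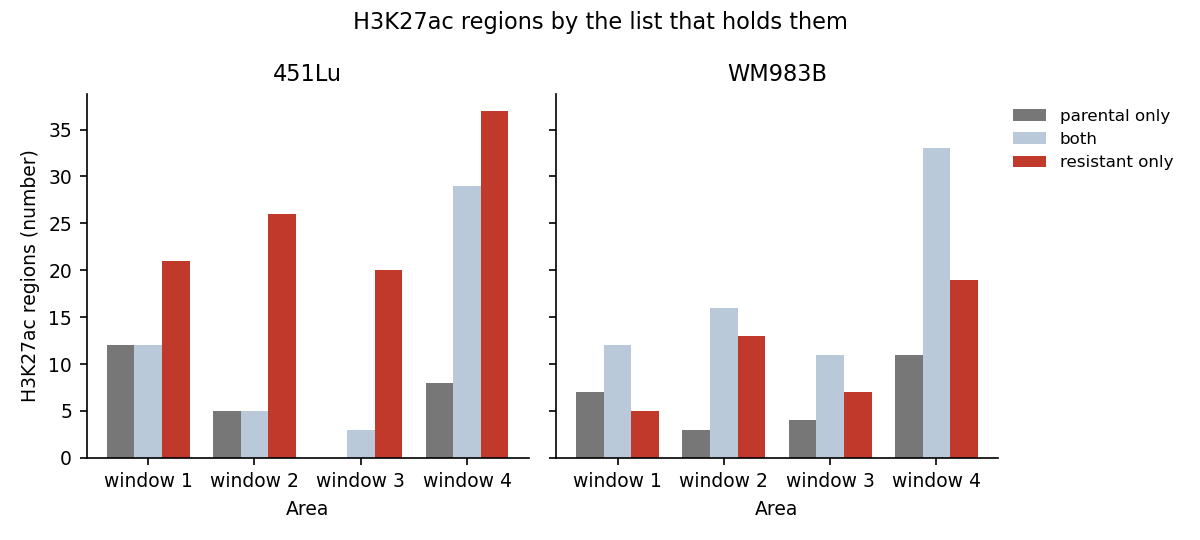
Number of H3K27ac regions (y axis) in each window (x axis) that were listed only in parental cells, only in resistant cells or in both, with 1 library per group. In 451Lu resistant-only regions outnumber parental-only ones in all 4 windows (21 against 12 in window 1 and 20 against 0 in window 3), but not in window 1 with lists of equal length (11 against 13), and in WM983B they do so in windows 2, 3 and 4.

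The windows differed among themselves. In 451Lu the resistant-only and parental-only regions numbered 21 and 12 in window 1, 26 and 5 in window 2, 20 and 0 in window 3 and 37 and 8 in window 4. With lists of equal length window 1 turned, with 11 resistant-only and 13 parental-only regions. In WM983B they were 5 and 7, 13 and 3, 7 and 4, and 19 and 11. Window 1 had the lowest ratio of resistant-only to parental-only regions in either line. In 451Lu it was also the window where H3K9me3 enrichment fell least. H3K9me3 was not listed for WM983B, and a link between the marks was not tested. Of the 104 resistant-only regions of 451Lu, 36 overlapped a resistant and 27 a parental WM983B peak, and 13 were resistant-only in both lines (12.5% of the 451Lu and 29.5% of the WM983B set, where the rest of the genome had 14.4% and 34.4%).

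Resistant-only H3K27ac in 451Lu was mostly of low score and often lay on open chromatin that was there before. The median peak score was 5.63 for resistant-only, 5.08 for parental-only and 16.3 for shared regions of the windows. Of the 104 resistant-only regions 46 (44.2%) overlapped chromatin open in both parental ATAC-seq libraries, against 15.01% in the rest of the genome. Of the 25 parental-only regions 2 did (8%, against 25.2% elsewhere). H3K9me3 islands of both parental libraries overlapped 59 of the 104 (56.7%) and islands of both resistant libraries 37 (35.6%). Both shares were below the mean share of window bases in islands, 79.7% in parental and 74.5% in resistant libraries. In the windows 8 left islands altogether and none entered them. In the rest of the genome the shares in islands were 10.7% and 10.1%, and of 32195 such regions 549 left islands and 528 entered them. Bins with a resistant-only region had a median H3K9me3 cover change of -5.5 points (82 bins), bins with a shared region -10.5 points (27 bins), bins with a parental-only region -1.5 points (21 bins) and bins without H3K27ac -2.5 points (405 bins).

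The best-scoring resistant-only regions of 451Lu were 52302002 to 52302463 in window 3 (score 46.1), 37807695 to 37808489 in window 2 (25.1), 58330461 to 58331018 in window 4 (22.9) and 19774910 to 19775283 in window 1 (16.3). The window 2 region lies less than 20 kb before the bin with the largest drop in H3K9me3 cover. The best-scoring parental-only region, 58339828 to 58340359 (score 20.04), matches the best-scoring one of WM983B, 58339758 to 58340455 (30.3). In WM983B the best-scoring resistant-only regions were 36631765 to 36632103 (21.8), 58839187 to 58839540 (14.1), 53661939 to 53662238 (7.53) and 21106552 to 21106827 (6.47).

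At 3 sites an ATAC-seq gain lay close to a resistant-only H3K27ac peak. At none of them did the gained peak leave an H3K9me3 island between parental and resistant cells. At 24237164 to 24237628 an ATAC-seq peak was gained in both resistant and shp150_AP1 cells, a resistant-only H3K27ac peak was listed at 24237650 to 24238137, and the H3K9me3 region 24230801 to 24240200 was lost between vector_NT and shp150_AP1. That region had 158 ChIP over 69 input reads and 273 over 189 in vector_NT, and the peak overlapped no island in the 6 other libraries, parental ones included. At 57789744 to 57790065 an ATAC-seq peak was gained in resistant cells 0.478 kb from a resistant-only H3K27ac peak (centre to centre). The H3K9me3 region 57778801 to 57786200, lost in resistant cells, ends before this peak. The peak itself overlapped no island in any parental or resistant library. At 52302562 to 52303111 an ATAC-seq peak (scores 7.88 and 13.1) was gained 0.605 kb from the best-scoring resistant-only H3K27ac peak, and there the island remained in all parental and resistant libraries. These sites were chosen after their values were seen. Of the 11 ATAC-seq gains of resistant cells in the windows, 7 (63.6%) lay within 5 kb of a resistant-only H3K27ac region, against 30.2% of gains in the rest of the genome. Of the 142 constant open regions of the windows 67 did (47.2%, against 25.8% elsewhere), so nearness was not limited to gains. Of the 13 gains of shp150_AP1 cells 3 did (23.1%, against 25.3%).

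The authors' deposited RRR table gives log2 fold changes for 1848 intervals of 451Lu without naming the assay or which group a positive value favours. All 7 intervals that touch the windows had a positive log2 fold change in the authors' deposited table, where 51.5% of all intervals and 67.3% of the 55 on chromosome 19 did. Of these, 5 (71.4%) had an adjusted p below 0.05 in the authors' deposited table, where 74.5% of all intervals did in either direction and 33.2% were positive and below 0.05. The largest log2 fold changes of the 7 in the authors' deposited table were 1.33 (SE 0.296, adjusted p = 1.431e-05) for the interval with the printed bounds 52000000 and 52320000, and 1.29 (SE 0.529, adjusted p = 0.0211) for 36740000 and 36800000. The other log2 fold changes in the authors' deposited table were 1.20 for 19800000 and 20040000, 1.11 for 52840000 and 53060000, 0.81 for 58460000 and 58660000, 0.67 for 56800000 and 57020000, and 0.55 for 37900000 and 37960000, the last 2 with adjusted p of 0.106 and 0.245.

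Island cover differed little over most of these intervals, and enrichment was lower, as over the windows as a whole. Of the 54 window bins tested for enrichment inside them, 7 fell in resistant cells and none rose by the limma test above. Of these, 5 lay in the interval at 58460000 and 2 in that at 19800000. Over all windows 48 of 494 bins fell, and no call held when any 1 library was left out or after centring. The median log2 changes of these 2 intervals were -0.44 and -0.44, and those of the other 5 intervals ran from -0.51 to -0.32. The median over all tested window bins was -0.38, so the intervals did not stand apart. For cover, the interval at 52840000 had 94.3% and 95.8% cover in parental and 93.8% and 89.4% in resistant cells, and that at 58460000 had 99.1% and 99.2% against 96% and 98.4%. At 36740000 cover was 37.3% and 31.8% against 24% and 23.8%. The interval at 52000000, most of which lies before window 3, had a cover of 22.8% and 24.1% against 22.5% and 22.4%. Over its full length it held 4 ATAC-seq gains of resistant cells, 1 loss and 16 resistant-only H3K27ac regions, counted with regions outside the windows. Of these gains only those at 52302562 and 52310433 lay in window 3, and the loss did not. The interval at 19800000 held 2 ATAC-seq gains in resistant cells, with 87.3% and 88.5% against 88.3% and 85.8% cover.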

How the data were processed

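The members, the lists and the alternatives were chosen with earlier results of these data known. Per the submitters' processing notes the build was hg19 and the tools included SICER, MACS2 and Bowtie2, with no roles given. No source used here states trimming, duplicate removal or a Tn5 shift. The deposited ATAC-seq and H3K27ac lists hold peaks of 1 library each with a score from the authors' caller, used only to rank and filter. The deposited H3K9me3 islands carry ChIP and input read counts with a p-value, a ratio (fold enrichment) and a false discovery rate per island. The deposited ratio was ChIP over input reads multiplied by a constant of the library (relative tolerance 1e-05). The islands are not limited to a low p-value, and all were used. The deposited RRR table was read as the authors' mean normalized signal, log2 fold change with its standard error, test score, p-value and adjusted p-value. Each printed end was read as where the last 20 kb step begins.

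Chromosomes 1 to 22 and X were used. Island cover and log2 enrichment (reads of an island shared out by length) were computed per 20 kb bin and tested with limma 3.58.1 in R 4.3.3 (trend and robust options), with group as the only term and all 8 libraries in the fit. Union regions were called in a library from 1 bp of overlap. The enrichment fit was run on simulated independent bins with normal noise of equal spread, and the region calls on simulated lists. The cover fit was not simulated. Up to 3 called bins per window, direction and contrast, and per window the top region of each kind, are named, ranked by size of change, by ChIP reads (lost), by width (shared) or by the lower of the peak scores. Peak lists carry no depth, which is unknown for them. Read counts come from PCR-amplified libraries without molecular identifiers. The labels list no input for shp150_AP1 replicate 1, and which input the authors used for it is not given. Gene annotation and genome sequence of hg19 were not used here, so marker genes of the lines and of silencing factors were not looked up. 15 samples without a file of their own were not analysed here.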

Additional observations from a re-analysis of the deposited data

How the results depend on the processing

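Each count in the windows was recomputed under its alternatives, 233 in all for 29 counts, and 128 stayed within 1.5 times. No window bin was called different between the contrasts under any of them. For cover in resistant cells, 25 bins fell and 3 rose, against 8 and 0 with the replicate number as a block, 13 and 1 without the filter on low cover, and 8 that rose after centring. Leaving out each library gave 0 to 22 and 0 to 2. For shp150_AP1, 7 fell, against 0 with the replicate block, 16 (of 108) with bins of 100 kb, 2 after centring, 11 with islands at a false discovery rate of at most 0.01, 0 without the filter, and 0 to 0 without each library. For enrichment in resistant cells, 48 fell, against 0 with the block, 28 (of 107) with 100 kb bins, 0 after centring, 96 with at least 30 input reads, and 0 to 0 without each library. For these H3K9me3 libraries the correlation of replicate differences in cover between groups ran from -0.0311 to 0.014. The same check was not made for enrichment, and the labels state no pairing beyond the replicate number. The region counts come from no test, and a call required within both replicate numbers is the same call as the one used, so the pairing changes none of them, WM983B ATAC-seq included.

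With at least 50% of a region covered, H3K9me3 gains in resistant cells were 2, losses in shp150_AP1 26, ATAC-seq losses in shp150_AP1 2, in AP1 5, in shp150 22 and in WM983B 5. With lists of equal length ATAC-seq losses were 4 in resistant, 3 in AP1 (gains 2), 4 in shp150 and 0 in WM983B cells, and H3K27ac counts were 46 resistant-only in 451Lu and 15 parental-only in WM983B. With peak scores of at least 5, ATAC-seq losses were 2 in AP1 and 2 in WM983B (gains 3), and parental-only H3K27ac in 451Lu was 15. Without each library in turn, H3K9me3 gains and losses were 1 to 9 and 22 to 43 in resistant and 0 to 3 and 17 to 35 in shp150_AP1 cells. ATAC-seq gains and losses were 13 to 21 and 3 to 5 (resistant), 16 to 24 and 3 to 6 (shp150_AP1), 3 to 4 and 2 to 8 (AP1), 0 to 4 and 14 to 18 (shp150) and 11 to 43 and 7 to 29 (WM983B). The cause was not tested for these shifts, though fewer libraries must share a call when 1 is left out. ChIP reads inside islands ran from 11.5 to 31.1 M per library, and the sequencing depth itself is unknown.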
